A study of Raphanus sativus with 12 samples.

Results

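This account covers the differential N6-methyladenosine (m6A) peaks that the authors' deposited table annotates as 3' UTR, the stretch of a transcript after its stop codon. They were taken as all rows of the differential peak table carrying that annotation, and they number 1890 of 5476 peaks, in 1862 of the 5211 genes with any differential peak. The samples were leaf blades of the diploid radish (Raphanus sativus) material XHT, collected 30 days after sowing, in vegetative growth, and 120 days after sowing, in reproductive growth. Both ages shared the genotype and the growth conditions. Each age had 3 biological replicates, each pooling the leaves of 3 plants. The 12 libraries comprised 6 of input RNA, sequenced without enrichment, and 6 immunoprecipitated with an m6A antibody. The title of the study names bolting and flowering as its question. Leaf age, growth stage and time after sowing moved together in this design and cannot be told apart.

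m6A is the most abundant internal mark of plant messenger RNA. In Arabidopsis it is written by a methyltransferase complex around MTA and MTB, removed by ALKBH demethylases and read by YTH-domain proteins of the ECT family, and it lies mainly near the stop codon and in the 3' UTR. Known outcomes of the mark there include altered transcript stability and altered choice of the polyadenylation site. In m6A sequencing, fragmented RNA is precipitated with an antibody, and a peak is a stretch where precipitated fragments pile up over the input.

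Rubisco small chain and chlorophyll a-b binding genes were abundant in all 6 input libraries, and 10 floral organ genes together stayed at or below 4.65 FPKM, a fragment count scaled to transcript length and library size, so the markers fitted the labelled tissue. The chlorophyll a-b binding genes summed to 23910 to 34098 FPKM at 120 days and to 803 to 4534 FPKM at 30 days. Among the 30-day input libraries, replicate 3 stood apart, with correlations across genes of 0.895 and 0.835 with replicates 1 and 2, whose own correlation was 0.944. The 120-day libraries correlated at 0.971 to 0.985. Each call printed below for a single gene that changed without 1 library is given with that value. Counts of calls over sets of genes come from all 6 input libraries, except where said.

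The 3' UTR peaks were mostly higher at 120 days. Of the 1890 peaks, 1828 were higher and 62 lower in the authors' deposited table, a share of 96.7% higher, beside 96.8% of all differential peaks. The authors' deposited table gave 86.9% higher for the 137 peaks annotated 5' UTR, 97.7% for the 2217 exonic peaks at a relative position of at least 0.8 in their gene, and 96.4% for the other 1232 exonic peaks. Relative position runs from 0 at the gene's 5' end to 1 at its 3' end and is that of the middle of the peak. The direction of the 3' UTR peaks thus followed that of the whole list. The table holds only peaks with a p-value under 0.05, so peaks that differed less were not analysed here.

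Most of the differences were small. The median log2 fold of the 3' UTR peaks in the authors' deposited table was 0.497, with an interquartile range of 0.361 to 0.678, and the median over all differential peaks was 0.504. The median was 0.506 for the 1828 higher and -0.88 for the 62 lower peaks in the authors' deposited table, so the few lower peaks were typically farther from 0. Genes with a lower peak also had a lower median transcript level over all input libraries, 2.99 FPKM beside 11.5 FPKM for genes with a higher peak. A difference of at least 2-fold was listed for 142 higher and 25 lower 3' UTR peaks, together 8.84%, beside 10.2% of all differential peaks. The smallest difference listed in the authors' deposited table was a log2 fold of 0.145, shared by a peak on the PP2A-3 catalytic subunit-like gene Rsa10024177 and one on Rsa10004938. The p-values of the 3' UTR peaks in the authors' deposited table reached 0.049, and 78 of them had an adjusted value over 0.05. These were 66 of the 1828 higher and 12 of the 62 lower peaks.

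**Figure D1:**
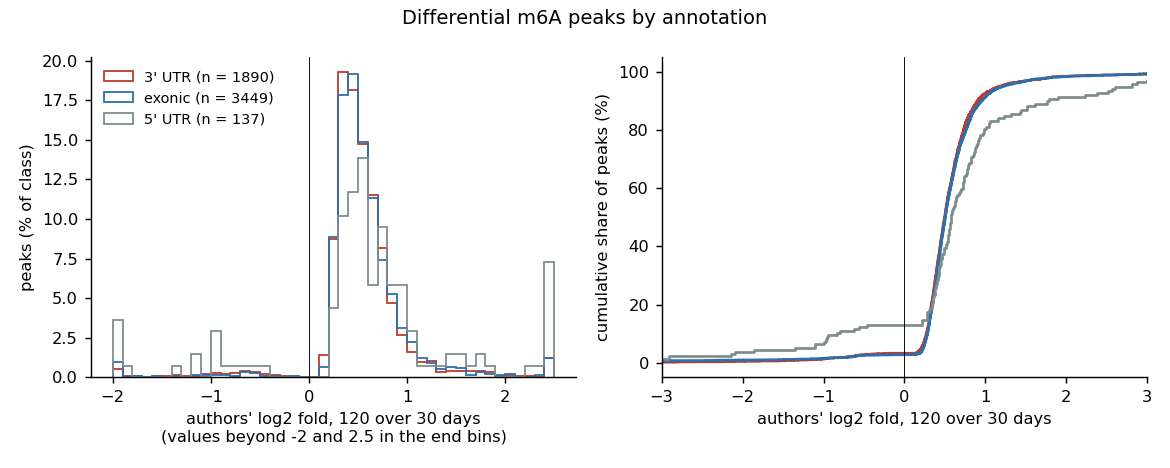
Distribution of the authors' log2 fold (120 over 30 days) of differential m6A peaks annotated 3' UTR (red, 1890), exonic (blue, 3449) and 5' UTR (grey, 137), as the percent of each class per bin of the histogram (left, values beyond the axis pooled in the end bins) and as a cumulative percent (right). The 3' UTR and exonic curves lie on each other, with medians of 0.497 and 0.505, and 13.1% of the 5' UTR peaks are lower.

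The peaks lay at the end of their genes. Their median relative position was 0.861, with an interquartile range of 0.75 to 0.917, and 1315 of them (69.6%) ended exactly at the annotated 3' end of the gene. Another 200 ended within 100 bases of it, 279 ended over 100 and up to 1000 bases before it, and 96 more than 1000 bases before it. The share ending exactly at the gene's 3' end was 72.9% for the exonic peaks, so this feature was common to both annotations. Of the 575 peaks that ended earlier, 90 did so 28 to 31 bases before the end, 59 at 58 to 61 bases and 45 at 88 to 91 bases. Peak edges thus recurred at steps of about 30 bases.

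For 46 peaks the middle lay at a relative position under 0.5, although the annotation was 3' UTR. The farthest from the gene's 3' end were on an uncharacterized gene (Rsa10040567), 18813 bases before it, and on a NAC domain-containing protein 17-like transcription factor gene (Rsa10011021), 11469 bases before it. No transcript models are among the deposited tables used here, so the position of each stop codon was not checked.

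**Figure D2:**
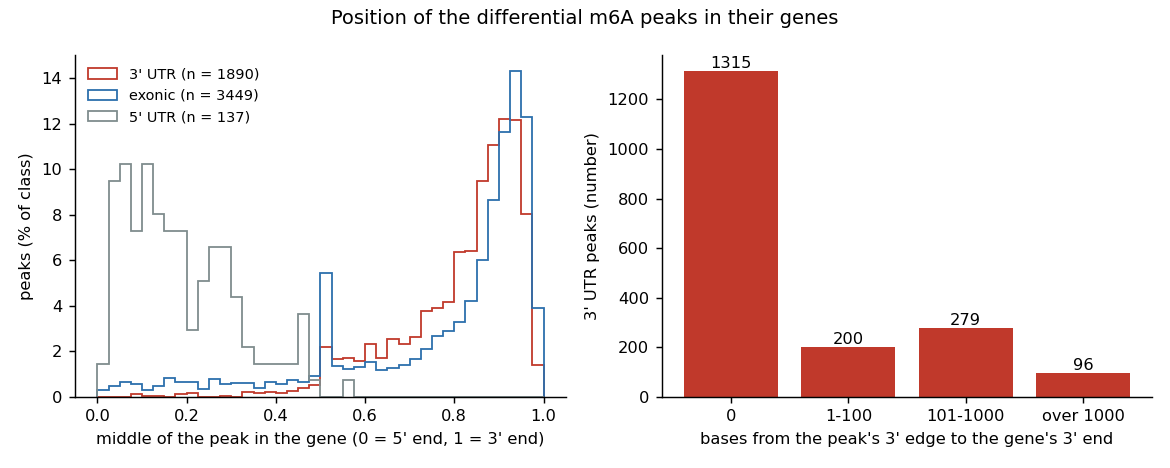
Left, relative position of the middle of each differential peak in its gene (0 is the 5' end, 1 the 3' end), as percent of each annotation class. Right, number of 3' UTR peaks by distance in bases from the peak's 3' edge to the annotated 3' end of the gene: 1315 ended at it, 200 within 100 bases, 279 at over 100 and up to 1000 bases and 96 beyond.

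The median span of the 3' UTR peaks lay between those of the exonic peaks near the gene end and elsewhere. Their genomic span, in which introns count, had a median of 502 bases (interquartile range 343 to 708), beside 435 for all differential peaks. The median was 359 for exonic peaks at a relative position of at least 0.8 and 586.5 for the other exonic peaks. A peak with its middle at 0.8 or beyond cannot cover most of its gene, so the class with 359 leaves out such peaks. Of the 3' UTR peaks, 28 spanned more than 2000 bases. They included one of 8490 bases on the VHS3-like gene Rsa10025729 and one of 5586 bases on an H/ACA ribonucleoprotein subunit 1-like gene (Rsa10021347). The product of the latter belongs to the complex that converts uridine to pseudouridine. A typical peak covered 21.1% of its gene's span, and 54 peaks covered at least 90% of it. The lower peaks were shorter, with a median span of 300 bases against 507 for the higher ones. Of the 62 lower peaks, 34 (54.8%) ended at the gene's 3' end, against 70.1% of the higher peaks. These are descriptions of the deposited list, since peaks are no replicates of an age.

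All 9 chromosomes carried such peaks. R05 held 299, R01 290 and R04 253, and the others between 143 and 221, with 41 on unplaced scaffolds. They made up 32.5% to 39.0% of the differential peaks of each. The median log2 fold in the authors' deposited table lay between 0.464 and 0.528 everywhere.

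The greatest increases fell on genes of several unrelated functions. The highest log2 fold in the authors' deposited table, 5.75, was on an uncharacterized gene (Rsa10011739). Among genes with a named product it was highest, 4.93, for cinnamoyl-CoA reductase 1 (Rsa10015266), which makes the aldehyde precursors of lignin, in a peak of 560 bases on chromosome R07 at 24610663 to 24611222. The input FPKM of this gene was 16.8, 9.02 and 10.7 at 120 days and 32.4, 13.6 and 41.9 at 30 days. The ages overlapped, and the transcript was not called different (limma, log2 fold -1.11, adjusted p = 0.0778), although it was called lower without 30-day replicate 2 (log2 fold -1.57, adjusted p = 0.0107). The authors' deposited table gave 4.51 for the psbP domain-containing protein 4 gene (Rsa10034044), of a family of proteins of the thylakoid lumen. Its transcript stood at 14.0, 22.8 and 32.5 FPKM at 120 days and 14.9, 21.1 and 19.3 FPKM at 30 days. The ages overlapped there too (limma, log2 fold 0.25, adjusted p = 0.532).

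The coiled-coil domain-containing protein 25-like gene (Rsa10000514) had a peak log2 fold of 3.69 in the authors' deposited table, with the smallest p of the strong increases, 6.31e-82. Its input FPKM was 29.0, 31.9 and 27.2 at 120 days and 67.8, 66.7 and 51.7 at 30 days. All 120-day libraries were below all 30-day libraries, and the transcript fell (limma, log2 fold -1.05, adjusted p = 0.00532; relative to the median gene -0.61, adjusted p = 0.0387).

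The remaining strong increases sat on genes of low transcript level. They were 3.81 for a Mediator subunit 15c (Rsa10027257), part of the complex that links transcription factors to RNA polymerase II, and 3.54 for a SUVH9-like gene (Rsa10029013), by the authors' deposited table. In Arabidopsis SUVH9 binds methylated DNA and takes part in RNA-directed DNA methylation. They were 3.51 for the EFM-like MYB gene (Rsa10027615), whose Arabidopsis relative represses flowering, and 3.44 for scarecrow-like 28 (Rsa10033506), a GRAS transcription factor, by the authors' deposited table. A mitochondrial pentatricopeptide repeat gene (Rsa10021204), of a family that binds organelle RNA, had 3.11 in the authors' deposited table. Of these genes the last was the most abundant, with 1.15, 0.85 and 0.99 FPKM at 120 days and 2.70, 2.38 and 2.42 FPKM at 30 days. The transcripts of the SUVH9-like gene (limma, log2 fold -0.93, adjusted p = 0.0093) and the pentatricopeptide repeat gene (limma, log2 fold -0.81, adjusted p = 0.00862) were called lower. Neither call held relative to the median gene, with adjusted p = 0.0833 and 0.101. With a pseudocount of 0.1 the log2 folds were -1.86 and -1.25.

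The 62 lower peaks included the largest single difference. The authors' deposited table gave -5.83 for endonuclease III homolog 1 (Rsa10032272), a chloroplast enzyme of DNA base excision repair, on chromosome R03 at 8479695 to 8480155. The gene's input FPKM was 1.15, 1.05 and 0.60 at 120 days and 1.28, 2.60 and 2.32 at 30 days. All 120-day libraries were lower, but the transcript was not called (limma, log2 fold -0.65, adjusted p = 0.0631), except without 30-day replicate 1 (log2 fold -0.85, adjusted p = 0.0356). The peak on RTE1-HOMOLOG (Rsa10018719) had -4.96 and the smallest p of all 3' UTR peaks, 7.94e-93, in the authors' deposited table. Its Arabidopsis relative RTE1 promotes signalling by the ethylene receptor ETR1. Its transcript was at 4.44, 7.56 and 8.15 FPKM at 120 days and 7.26, 11.98 and 5.47 FPKM at 30 days, with overlapping ages (limma, log2 fold -0.23, adjusted p = 0.567).

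A subunit of mitochondrial complex I, NADH dehydrogenase 1 beta subcomplex subunit 7 (Rsa10017341), had a 3' UTR peak at -4.75 and a 5' UTR peak at 0.49 in the authors' deposited table. The cyclophilin CYP21-1 (Rsa10026556), a protein-folding isomerase, had -2.81 in the authors' deposited table. Its transcript also fell, from 15.1, 12.4 and 15.3 FPKM at 30 days to 7.87, 6.74 and 6.80 FPKM at 120 days (limma, log2 fold -0.91, adjusted p = 0.006; relative to the median gene -0.47, adjusted p = 0.0419). An F-box gene (Rsa10030421; -2.58), the lysophosphatidic acid acyltransferase 2 gene (Rsa10000813; -1.98) and an LSH10-like gene (Rsa10039220; -1.78) completed the named decreases of the authors' deposited table. The authors' adjusted p was 0.0724 for the F-box peak and 0.0891 for the LSH10-like peak. No input library of either gene exceeded 0.71 FPKM.

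The type-A response regulator ARR7 (Rsa10040831), which dampens cytokinin signalling, had a peak at -2.25 in the authors' deposited table. Its input FPKM was 6.31, 2.68 and 3.79 at 120 days and 0.70, 0.05 and 0.45 at 30 days. Every 120-day library was above every 30-day library, and the transcript rose (limma, log2 fold 1.88 on the log2(FPKM + 1) scale, adjusted p = 0.00643; relative to the median gene 2.32, adjusted p = 0.00429). With a pseudocount of 0.1 in place of 1 the log2 fold was 3.35.

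The transcript level of the genes was read from the 6 input libraries. In bulk leaf samples, fewer cells of a type and less RNA per cell cannot be told apart. Over all 21435 genes tested the median log2 fold was -0.45, so calls are also given relative to that shift, after centring each library on its median. Of the 1862 genes with a 3' UTR peak, 1860 had a row in the expression table and 1786 passed the filter on low values. Of those 1786, limma called 70 higher at 120 days (3.92%, beside 8.4% of all genes tested) and 1025 lower (57.4%, beside 37.6%). After median centring, 155 were called higher (8.68%, beside 13.8%) and 268 lower (15.0%, beside 10.2%). Without 120-day replicate 2 the uncentred counts were 33 higher and 533 lower, without 120-day replicate 3 they were 35 and 528, and without 120-day replicate 1 they were 47 and 679.

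Genes with an exonic peak at a relative position of at least 0.8 and no 3' UTR peak gave similar shares. Of 2153 tested, 93 were called higher (4.32%) and 1149 lower (53.4%). The lower calls among genes with a 3' UTR peak were therefore not set apart from those among other genes with a peak near the 3' end, and the difference was not tested. The median level of the genes with a 3' UTR peak was 11.3 FPKM over all input libraries, beside 5.07 FPKM for all genes in the table.

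The calls of the genes are given side by side with the direction of their peak. Of the 1735 tested genes with a higher peak, 61 were called higher (3.52%) and 1008 lower (58.1%). After median centring these were 143 (8.24%) and 265 (15.3%). Of the 53 tested genes with a lower peak, 9 were called higher (17.0%) and 18 lower (34.0%). After median centring these were 12 (22.6%) and 3 (5.66%). Over all genes tested the shares were 8.4% higher and 37.6% lower, and 13.8% and 10.2% after centring. The differences were not tested. Without each 120-day replicate in turn the 18 lower calls became 8, 6 and 5, and without 30-day replicate 1 they became 10. The sources used here do not say whether the authors' peak fold takes account of the input libraries. The peak and transcript values may therefore share libraries, so no relation between them is read from these shares.

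Among the listed peaks, the size of the difference varied with transcript level. The 82 peaks in genes of at most 1 FPKM had a median log2 fold of 1.02 in the authors' deposited table, and 58.5% of them were at least 2-fold. The median was lower in each class above, from 0.675 at 1 to 5 FPKM and 0.558 at 5 to 10 FPKM to 0.343 at 50 to 100 FPKM in the authors' deposited table. Above 100 FPKM the 49 peaks had a median of 0.342 in the authors' deposited table, and none reached 2-fold. Lower peaks made up 9.76% of the peaks in genes of at most 1 FPKM and 8.26% at 1 to 5 FPKM, but between 1.25% and 2.11% in every class above. Only peaks with a p-value under 0.05 are listed, so small differences that missed this limit are absent from every class. How far the limit set these medians was not tested. The sources used here do not give reads per peak, and the part of depth in this pattern was not tested.

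**Figure D3:**
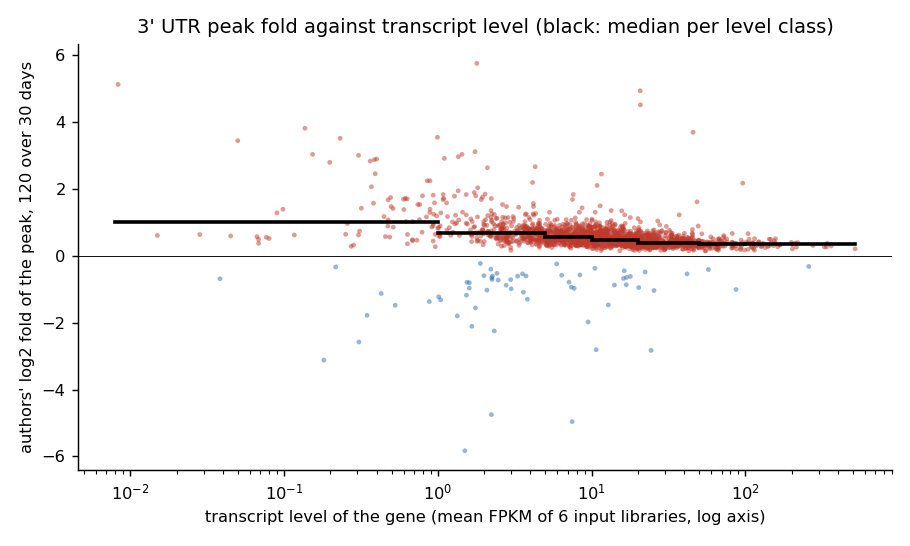
The authors' log2 fold (120 over 30 days) of each 3' UTR peak against the mean FPKM of its gene over 6 input libraries (log axis), for the 1888 peaks whose gene has a row in the expression table; red points are higher, blue points lower, and black lines mark the median of each level class. The medians fall from 1.02 at up to 1 FPKM to 0.342 above 100 FPKM.

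Most genes had a single 3' UTR peak. This held for 1835 genes, while 26 had 2 and 1 had 3. The gene with 3 encodes splicing factor 3A subunit 1 (Rsa10037931), a component of the U2 snRNP, and its peaks had 0.734, 0.567 and 0.545 in the authors' deposited table. The SFH8 gene (Rsa10028929), for a lipid transfer protein, had 0.617 and 0.288, and callose synthase 12 (Rsa10009575), which makes the callose of wound and infection sites, had 0.729 and 0.38 in the authors' deposited table. In 2 genes the peaks went in opposite directions. They were a HAC12-like histone acetyltransferase gene (Rsa10038092; 0.461 and -0.648) and EDR1 (Rsa10022767; 0.494 and -0.576), a kinase that restrains defence, in the authors' deposited table.

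Expression of these genes went different ways. SFH8 was at 42.9, 44.4 and 46.6 FPKM at 120 days and 31.4, 27.98 and 28.6 FPKM at 30 days (limma, log2 fold 0.59, adjusted p = 0.0121; relative to the median gene 1.03), a call that did not hold without 120-day replicate 2 or 3 (adjusted p = 0.0562 and 0.0584). The splicing factor was at 6.11, 6.25 and 5.08 FPKM at 120 days and 8.57, 8.33 and 10.8 FPKM at 30 days. The ages did not overlap in either gene. The splicing factor's lower call (limma, log2 fold -0.58, adjusted p = 0.027) was lost relative to the median gene (adjusted p = 0.51) and without any 120-day replicate or 30-day replicate 1 (adjusted p from 0.0556 to 0.104).

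A differential peak elsewhere in the gene accompanied the 3' UTR peak in 88 genes, 34 of which had a 5' UTR peak. Of 95 such pairs, 5 were of opposite sign in the authors' deposited table. One was LHT1 (Rsa10035378), an amino acid transporter of the plasma membrane, with -0.951 in the 3' UTR and 3.46 in the 5' UTR by the authors' deposited table. Its transcript ranged over 33.7, 12.5 and 13.8 FPKM at 120 days and 36.3, 17.6 and 7.55 FPKM at 30 days, with wide overlap. The exocyst gene SEC15A (Rsa10024298), for vesicle tethering, had 0.945 in the 3' UTR and -1.11 in the 5' UTR by the authors' deposited table.

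By the gene descriptions, 542 of the 1890 peaks fell into at least 1 of 13 functional lists. The lists hold only genes whose description matched chosen words, so they miss some genes of a function. The 89 peaks on genes matched by the translation words were all higher, beside 96.7% of all 3' UTR peaks. The 89 made up 39.4% of the 226 differential peaks of that list, beside 34.5% over all differential peaks. Their median log2 fold was 0.383 in the authors' deposited table, below the 0.497 of all 3' UTR peaks. The chloroplast ribosomal proteins S31 (Rsa10038929; 0.378, p = 7.94e-81) and L9 (Rsa10003735; 0.412) and the translation factor eIF5A-2 (Rsa10029121; 0.374) had the smallest p-values of that list in the authors' deposited table. L9 stood at 139, 169 and 181 FPKM at 120 days and 74.6, 70.3 and 102 FPKM at 30 days, and eIF5A-2 at 264, 268 and 256 FPKM at 120 days and 444, 354 and 462 FPKM at 30 days. The ages did not overlap in either gene, and L9 was higher at 120 days while eIF5A-2 was lower. L9 was called higher (limma, log2 fold 0.99, adjusted p = 0.0116), a call that did not hold without 120-day replicate 2 or 3 (adjusted p = 0.052 and 0.0524). For eIF5A-2 the lower call (limma, log2 fold -0.66, adjusted p = 0.0292) was lost relative to the median gene (adjusted p = 0.398) and without any 120-day replicate or 30-day replicate 1 (adjusted p from 0.0855 to 0.108), and with no filter on low genes (adjusted p = 0.0558). Of the 89 transcripts, limma called 4 higher and 52 lower, or 8 in each direction after median centring. The 58.4% called lower stood beside 57.4% of all tested genes with a 3' UTR peak and 37.6% of all genes tested, and the 8.99% called in each direction after centring beside 13.8% higher and 10.2% lower of all genes tested.

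Ribosome was also the KEGG pathway with the most such genes. It held 105 genes with a 3' UTR peak among 608 (17.3%), followed by Spliceosome with 54 of 368 (14.7%) and RNA transport with 46 of 458 (10.04%). Over all genes with a KEGG pathway the share was 7.06%, and for Plant hormone signal transduction it was 2.90%, 20 of 689. The shares count transcribed and silent genes alike, and they were not tested. Among the 3' UTR peaks, 1 was lower on the Ribosome genes and 3 on the Plant hormone signal transduction genes.

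The 49 peaks on genes matched by the RNA handling words were likewise all higher, with a median of 0.453 in the authors' deposited table. Over all 3' UTR peaks 96.7% were higher. The 49 made up 30.8% of the 159 differential peaks of that list, beside 34.5% over all differential peaks. The DEAD-box helicase 42 gene (Rsa10038390) had 1.05 in the authors' deposited table. It was at 10.2, 9.43 and 10.4 FPKM at 120 days and 21.2, 16.6 and 12.7 FPKM at 30 days. All 30-day libraries were above the 120-day ones, but the lower call (limma, log2 fold -0.67, adjusted p = 0.0332) was lost relative to the median gene (adjusted p = 0.392) and without any 1 library other than 30-day replicate 3 (adjusted p from 0.0574 to 0.11). Of 45 tested genes of this list limma called 0 higher, with 0 also at an unadjusted p under 0.05, and 24 lower, and after median centring 3 and 2. The 53.3% called lower was near the 57.4% of all tested genes with a 3' UTR peak, of which 3.92% were called higher.

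Genes matched by the flowering and MADS-box words carried 10 of the peaks, all higher, beside 96.7% of all 3' UTR peaks. The median of the 10 was 0.352 and their range 0.158 to 0.836 in the authors' deposited table. The words missed the EFM-like MYB gene (3.51) and the cyclic dof factor 5-like gene (-1.56), relatives of repressors of flowering and of CONSTANS. The greatest among the 10 was on the MADS AFFECTING FLOWERING 5-like gene (Rsa10016139), on chromosome R01 at 41304844 to 41306265. The Arabidopsis relatives of this gene are FLC-type repressors of flowering. Its transcript was at 3.18, 2.99 and 2.82 FPKM at 120 days and 13.1, 14.7 and 17.8 FPKM at 30 days. The ages were far apart, and the transcript fell (limma, log2 fold -2.01, adjusted p = 0.00153; relative to the median gene -1.57, adjusted p = 0.00271).

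The SVP-like gene (Rsa10010012) encodes a relative of another MADS-box repressor of flowering and had a peak at 0.314 in the authors' deposited table. Its transcript was at 48.0, 41.9 and 45.2 FPKM at 120 days and 27.1, 25.6 and 38.6 FPKM at 30 days. Its higher call (limma, log2 fold 0.57, adjusted p = 0.0466) was lost without any 1 library other than 30-day replicate 3 (adjusted p from 0.0937 to 0.132) and when the filter on low genes was dropped (adjusted p = 0.0551) or the variance trend was left out (adjusted p = 0.0506). Relative to the median gene the SVP-like transcript was called higher too (limma, log2 fold 1.01, adjusted p = 0.0141). AGL16 (Rsa10037151), which also delays flowering in Arabidopsis, had a peak at 0.456 in the authors' deposited table. Its transcript was at 12.1, 11.2 and 9.93 FPKM at 120 days and 12.3, 12.3 and 13.7 FPKM at 30 days. The ages lay side by side without overlap, and the transcript was not called (limma, log2 fold -0.19, adjusted p = 0.282).

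The other matched flowering genes with a higher 3' UTR peak were FPA (Rsa10039278; 0.346) and flowering locus K homology domain (Rsa10043111; 0.426), which act in the autonomous pathway, by the authors' deposited table. They also were EARLY FLOWERING 3-like (Rsa10023025; 0.158), CONSTANS-LIKE 13-like and 9-like (Rsa10009940; 0.225 and Rsa10034472; 0.301) and the squamosa promoter-binding-like genes 6 and 16 (Rsa10004455; 0.79 and Rsa10034085; 0.358), by the authors' deposited table. Of the 10 transcripts, limma called 1 higher and 4 lower, or 1 in each direction after median centring. These counts were near the shares of all genes tested, 8.4% higher and 37.6% lower. The higher call was that of SVP-like, which was lost without most single libraries, as given above.

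The words chosen for genes that write, remove or read m6A matched 2 genes by their descriptions. They were a carnosine N-methyltransferase-like gene (Rsa10016654; 0.527) and methyltransferase-like protein 5 (Rsa10036861; 0.791) in the authors' deposited table. Neither belongs to the messenger RNA m6A writer complex. METTL5 methylates ribosomal RNA in mammals. No 3' UTR peak in the list fell on a gene described as MTA, MTB, an ALKBH demethylase or an ECT reader.

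Clock and light genes gave 3 peaks, on a phytochrome-associated phosphatase 3 (Rsa10031812; 0.629) and on the light receptor genes cryptochrome 1-like (Rsa10029400; 0.241) and phytochrome C (Rsa10016875; 0.351) in the authors' deposited table. Phytochrome C, a red light receptor, was at 2.15, 2.24 and 2.03 FPKM at 120 days and 4.09, 3.44 and 3.15 FPKM at 30 days. The lower call (limma, log2 fold -0.53, adjusted p = 0.0294) was lost relative to the median gene (adjusted p = 0.64) and without any 120-day replicate or 30-day replicate 1 (adjusted p from 0.08 to 0.105), and with no filter on low genes (adjusted p = 0.055). The blue light receptor gene was at 53.2, 54.7 and 58.6 FPKM at 120 days and 45.7, 44.7 and 39.2 FPKM at 30 days. It was not called (limma, log2 fold 0.36, adjusted p = 0.0668), but was called higher relative to the median gene (0.79, adjusted p = 0.0131).

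Genes matched by the photosynthesis and chloroplast words carried 7 of the 3' UTR peaks, of which 5 were higher and 2 lower in the authors' deposited table. They were 4.38% of the 160 genes of that list, beside 6.17% of all genes in the expression table, and 41.2% of its 17 differential peaks, beside 34.5% of all differential peaks. The chlorophyll a-b binding transcripts, at 23910 to 34098 FPKM against 803 to 4534 FPKM, moved with age as well, and their part in these values was not tested. The lower ones were on photosystem I subunit III (Rsa10015874; -0.321), which docks the electron donor plastocyanin, and on a photosystem II 47 kDa gene (Rsa10007713; -1.3), by the authors' deposited table. The latter is described as a chloroplast sequence, and its peak had an authors' adjusted p of 0.0575. No other matched gene is described as a photosystem gene. Higher peaks were on gamma carbonic anhydrase 2 and gamma carbonic anhydrase-like 2, both described as mitochondrial. The other higher peaks were on a rubisco-binding protein subunit alpha, a root ferredoxin and beta carbonic anhydrase 4-like. The words missed the psbP domain-containing protein 4 gene, with its higher peak of 4.51. Beta carbonic anhydrase 4-like (Rsa10024570), which interconverts carbon dioxide and bicarbonate, had 0.238 in the authors' deposited table. Its transcript rose, from 63.9, 64.8 and 58.2 FPKM at 30 days to 95.5, 101.4 and 115 FPKM at 120 days (limma, log2 fold 0.73, adjusted p = 0.00994; relative to the median gene 1.16). Ferredoxin root R-B2 (Rsa10020197), an electron carrier of non-green tissue, had 0.681 in the authors' deposited table. Its transcript fell, from 33.7, 21.6 and 39.2 FPKM at 30 days to 9.19, 7.91 and 7.08 FPKM at 120 days (limma, log2 fold -1.81, adjusted p = 0.00382; relative to the median gene -1.37).

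All 13 peaks on genes matched by the hormone words were higher, with a median of 0.585 in the authors' deposited table. Over all 3' UTR peaks 96.7% were higher. The words missed ARR7 (-2.25), RTE1-HOMOLOG (-4.96) and TIFY 7-like (-0.543), named elsewhere here, whose peaks were lower. Other hormone genes that the words missed, with higher or lower peaks, were not counted. The matched genes included protein phosphatase 2C genes. Among the 13 were the brassinosteroid receptor BRI1-like (Rsa10027048; 0.593) and 2 genes of its co-receptor BAK1 (Rsa10037097; 0.618 and Rsa10012013; 0.589). The auxin repressor IAA17 (Rsa10012438; 0.61) and the cytokinin-activating enzyme LOG7 (Rsa10020886; 0.602) were others, by the authors' deposited table. Of the 13 transcripts limma called 0 higher, with 0 also at an unadjusted p under 0.05, and 8 lower, against 0 and 6 after median centring. The 61.5% called lower was near the 57.4% of all tested genes with a 3' UTR peak. After centring the share was 46.2%, beside 15.0%, over few genes and with no test of the difference. BRI1-like fell from 13.9, 12.4 and 11.8 FPKM at 30 days to 4.07, 4.10 and 3.39 FPKM at 120 days (limma, log2 fold -1.50, adjusted p = 0.00212; relative to the median gene -1.06). RAP2-12 (Rsa10012125), an ethylene-response factor of low-oxygen signalling, had a peak at 0.464 in the authors' deposited table. It was lower at 120 days, with 57.4, 54.1 and 57.03 FPKM against 115, 103 and 176 FPKM (limma, log2 fold -1.17, adjusted p = 0.00901), but not relative to the median gene (-0.74, adjusted p = 0.0576).

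The larger lists had mostly higher peaks too. In the authors' deposited table the counts of higher and lower peaks were 65 and 2 for transcription factors, 114 and 3 for protein turnover, 116 and 2 for kinases and signalling, and 56 and 1 for transport. Their medians in the authors' deposited table lay between 0.521 and 0.532. The transcription factor words missed genes with lower peaks, among them cyclic dof factor 5-like (-1.56), LOB domain-containing protein 41-like (-1.48, authors' adjusted p = 0.0724) and indeterminate-domain 16-like (-1.23). They also missed genes with higher peaks, such as scarecrow-like 28 (3.44), and the missed genes of either direction were not counted. NAC domain-containing protein 18 (Rsa10031761), a transcription factor, had a peak at 0.943 in the authors' deposited table and fell from 17.6, 21.4 and 25.4 FPKM at 30 days to 7.67, 5.6 and 7.71 FPKM at 120 days (limma, log2 fold -1.49, adjusted p = 0.00369; relative to the median gene -1.05). The calcium permeable stress-gated channel 1 gene (Rsa10003645) had 0.732 in the authors' deposited table, and its transcript fell from 33.9, 22.3 and 34.8 FPKM to 12.9, 10.5 and 10.7 FPKM (limma, log2 fold -1.32, adjusted p = 0.00561; relative to the median gene -0.88). The receptor kinase gene SERK2-like (Rsa10035803) had 0.352 in the authors' deposited table and fell from 86.0, 102 and 83.3 FPKM to 44.9, 44.9 and 43.6 FPKM (limma, log2 fold -1.004, adjusted p = 0.00427; relative to the median gene -0.57, adjusted p = 0.0456). In all 3 genes every 30-day library was above every 120-day library.

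The plastid Clp protease genes ClpR4 (Rsa10025340; 0.548) and CLPT2 (Rsa10006280; 0.405) and the chloroplast protease Do-like 5 (Rsa10003185; 0.507) had the smallest p-values among protein turnover genes in the authors' deposited table. None of their transcripts was called (limma, adjusted p = 0.0561, 0.947 and 0.688), except that of ClpR4, which was called lower without 30-day replicate 2 or 3 (adjusted p = 0.0432 and 0.0392). The plasma membrane proton pump gene ATPase 2 (Rsa10019028) had 0.328 in the authors' deposited table and 173, 149 and 144 FPKM at 120 days against 201, 161 and 181 FPKM at 30 days, with overlapping ages (limma, adjusted p = 0.314).

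Among 14 genes matched by the defence and stress words the peak was higher on 12 and lower on 2, with a median of 0.357 in the authors' deposited table. The lower ones were on the disease resistance gene RPM1 (Rsa10034444; -1.32) and peroxidase 34 (Rsa10010554; -1.04), by the authors' deposited table. The RPM1 peak had an authors' adjusted p of 0.0759. The smallest p was on the disease resistance gene RF45 (Rsa10022444; 0.391, p = 3.16e-65) in the authors' deposited table. The 16 peaks on genes matched by the carbohydrate and cell wall words were all higher, with a median of 0.558 in the authors' deposited table. Over all 3' UTR peaks 96.7% were higher. The dolichyl-diphosphooligosaccharide subunit DAD1 (Rsa10039565; 0.463), of the complex that glycosylates proteins, was called lower as a transcript (limma, log2 fold -0.42, adjusted p = 0.0482), but relative to the median gene it stood at 0.02 (adjusted p = 0.931), its peak value being from the authors' deposited table. That call was also lost without any 1 library other than 30-day replicate 3 (adjusted p from 0.056 to 0.165) and with no variance trend (adjusted p = 0.0564).

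**Figure D4:**
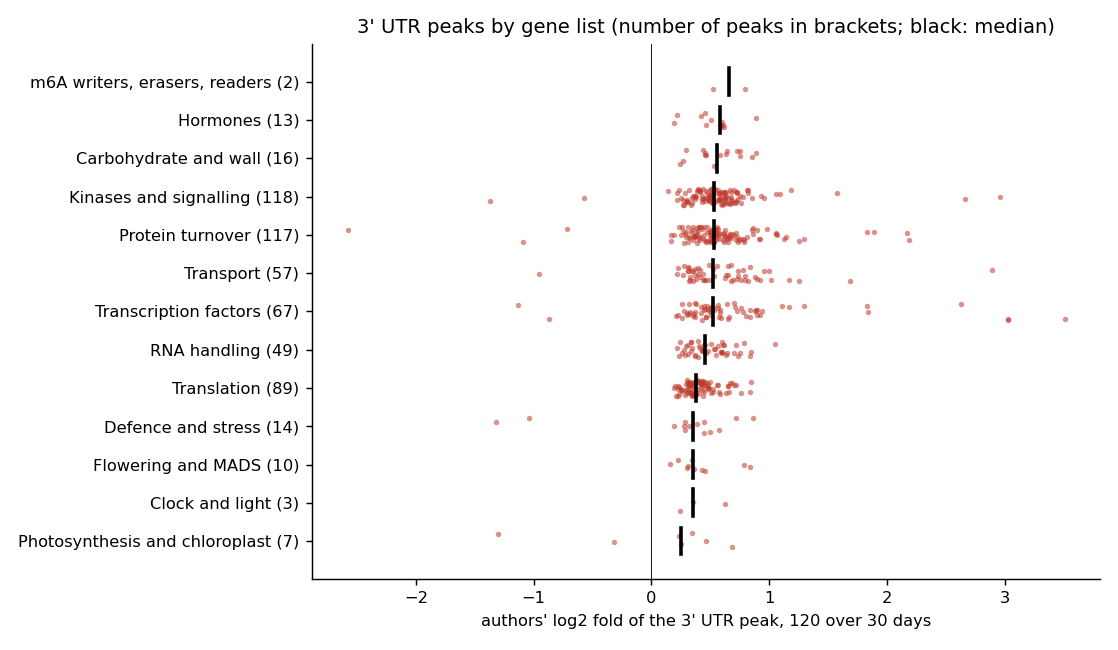
The authors' log2 fold (120 over 30 days) of 3' UTR peaks in 13 gene lists made from words in the gene descriptions; each point is a peak, spread vertically at random, black lines mark list medians, and the number of peaks is in brackets. All 89 translation peaks lie above 0, as do 96.7% of all 3' UTR peaks. Medians run from 0.25 for the photosynthesis and chloroplast words to 0.659 for the 2 peaks matched by the m6A words. Neither of those 2 peaks is on a gene of the messenger RNA m6A writer complex.

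Among genes called different, with no overlap between the ages and an average of 10 FPKM or more at the age with more transcript, the 4 greatest rises and the 4 greatest falls in transcript level are given with the peak value of each gene beside them. Serine acetyltransferase 1 (Rsa10012224), which makes the precursor of cysteine, rose from 1.23, 0.78 and 1.10 FPKM at 30 days to 17.4, 13.9 and 17.4 FPKM at 120 days (limma, log2 fold 3.08, adjusted p = 0.000786), and had a peak at 0.851 in the authors' deposited table. DAHP synthase 1 (Rsa10026312), which opens the shikimate pathway to aromatic amino acids, rose from 21.1, 26.9 and 8.81 FPKM to 213, 119 and 132 FPKM (limma, log2 fold 3.05, adjusted p = 0.0043), and had a peak at -1.01 in the authors' deposited table. Every 120-day library was above every 30-day library in both genes.

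Photosystem I subunit III (Rsa10015874) rose from 83.8, 58.6 and 47.7 FPKM to 418, 461 and 483 FPKM (limma, log2 fold 2.86, adjusted p = 0.00164), beside its peak at -0.321 in the authors' deposited table. Peroxidase 34 (Rsa10010554), a cell wall peroxidase, rose from 8.23, 14.0 and 3.10 FPKM to 42.3, 57.4 and 27.7 FPKM (limma, log2 fold 2.33, adjusted p = 0.013), a call lost without 120-day replicate 2 (log2 fold 2.09, adjusted p = 0.0521). The ages did not overlap in either gene.

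MLP-like protein 31 (Rsa10020683), of the major latex protein family, fell from 237, 244 and 147 FPKM at 30 days to 16.9, 11.9 and 14.8 FPKM at 120 days (limma, log2 fold -3.74, adjusted p = 0.00137), with a peak at 0.377 in the authors' deposited table. The sugar transporter ERD6-like 18 (Rsa10027388) fell from 39.1, 34.1 and 16.3 FPKM to 3.14, 3.31 and 1.95 FPKM (limma, log2 fold -2.95, adjusted p = 0.00308), with a peak at 0.763 in the authors' deposited table. All 120-day libraries were below all 30-day libraries in both genes.

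A REF/SRPP-like gene (Rsa10005097), of a family coating lipid particles, fell from 45.5, 72.0 and 80.4 FPKM to 8.70, 9.41 and 6.66 FPKM (limma, log2 fold -2.83, adjusted p = 0.00182), with a peak at 1.22 in the authors' deposited table. An uncharacterized gene (Rsa10007251) fell from 84.2, 87.95 and 45.5 FPKM to 7.45, 6.55 and 9.33 FPKM (limma, log2 fold -3.02, adjusted p = 0.00212), with a peak at 0.671 in the authors' deposited table. These falls and rises were also called relative to the median gene.

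**Figure D5:**
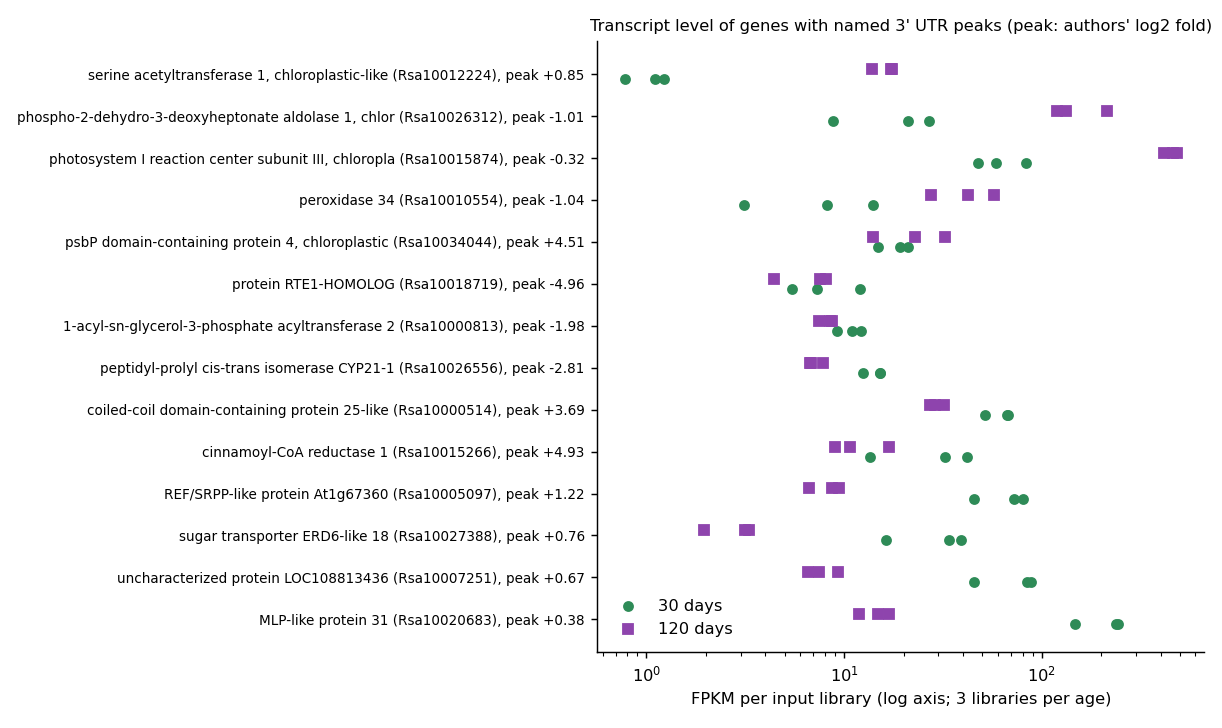
FPKM in each input library (log axis) of the named genes with the greatest peak or transcript differences and a mean of at least 5 FPKM; green circles are the 3 libraries of 30 days, purple squares the 3 libraries of 120 days, and the authors' log2 fold of the peak stands after each gene. Serine acetyltransferase 1 lies between 0.78 and 1.23 FPKM at 30 days and between 13.9 and 17.4 FPKM at 120 days, while the ages overlap for RTE1-HOMOLOG and psbP domain-containing protein 4.

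The 9 genes with a lower peak and a higher transcript call also included TIFY 7-like (Rsa10008104; peak -0.543), of the family of jasmonate repressors, and PLANT CADMIUM RESISTANCE 10 (Rsa10037714; peak -0.486), by the authors' deposited table. TIFY 7-like was at 81.9, 38.2 and 54.7 FPKM at 120 days and 22.3, 33.0 and 20.7 FPKM at 30 days, and the cadmium resistance gene at 28.4, 37.0 and 34.6 FPKM against 10.4, 15.4 and 8.13 FPKM. The ages did not overlap in either gene (limma, log2 fold 1.13 and 1.52, adjusted p = 0.0279 and 0.00581). The call of TIFY 7-like was lost without 120-day replicate 1 or 3 or 30-day replicate 1 (adjusted p from 0.0698 to 0.0858). Among the 18 with a lower peak and a lower transcript call was the cyclic dof factor 5-like gene (Rsa10009779; peak -1.56 by the authors' deposited table), of a family that represses CONSTANS in Arabidopsis. It was at 0.51, 0.95 and 0.68 FPKM at 120 days and 2.68, 3.69 and 2.03 FPKM at 30 days (limma, log2 fold -1.13, adjusted p = 0.00927), and the call did not hold relative to the median gene (-0.70, adjusted p = 0.075). With a pseudocount of 0.1 its log2 fold was -1.83. These genes were picked after their values were seen.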

How the data were processed

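Fragment counts had been turned by the authors into FPKM per gene for each of the 6 input libraries, per the file headers, and these deposited values were used. The submitters' processing notes name fastp, FastQC, HISAT2, StringTie, HOMER and edgeR, with no versions or roles; the peak caller and genome build are not given in the sources used here. The differential peak table gives the authors' log2 fold and p-value per peak, per the file headers; every row has a p-value under 0.05. Peak starts count from 0 and were raised by 1. The deposited table that joins peaks and genes was not used.

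Genes with at least 1 FPKM in at least 3 of 6 libraries were tested on log2(FPKM + 1) with limma 3.58.1 (moderated, with trend) in R 4.3.3, with Benjamini-Hochberg adjustment and a threshold of 0.05; fold changes on this scale understate those of low genes. The fit was tested on simulated data. The limma p-values set the difference between the ages against the spread between these libraries, each of 3 pooled plants, with variances moderated across genes. Values were not whole multiples of a read (at most 28.2% of low values were), so depth is unknown. Alternatives were other pseudocounts (0.1, 0.5), filters, scalings, a replicate block, no trend and leaving out each library. Named genes are the 8 greatest peak increases and decreases with an informative description, 5 genes with several peaks, 3 per list by the authors' p, and the 4 greatest expression changes in each direction among called genes with no overlap between ages and an average of 10 FPKM or more at the age with more transcript; others are said to be picked later or belong to small lists given whole. Members and lists were chosen with earlier results of these data known, and some list words were narrowed after the files were seen. Peaks of other annotations were used for comparison only.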

Additional observations from a re-analysis of the deposited data

How the results depend on the processing

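Median centring gave 2968 higher and 2188 lower calls over all genes, 155 and 268 among genes with a 3' UTR peak, and 3 lower calls among genes with a lower peak. Quantile normalization gave 2799 lower calls over all genes, 129 higher and 325 lower among genes with a 3' UTR peak, and 5 lower among genes with a lower peak; requiring 5 FPKM left 6 of the last. The cause of these moves was not tested. Leaving out 1 library at a time gave 954 to 2197 higher and 3789 to 9166 lower calls over all genes, 33 to 68 higher and 528 to 1079 lower among genes with a 3' UTR peak, and 5 to 19 lower among genes with a lower peak. At an authors' adjusted p of at most 0.01, 31 lower peaks were left, and at an absolute log2 fold of at least 2, 30 higher and 9 lower with a median of 2.66. DAD1 (Rsa10039565) changed sign after median centring, to a log2 fold of 0.0196. Same-numbered libraries deviated together with r = 0.272, 0.142 and 0.0814, each correlating best with its own number, which is a hint from the data; the fit with a replicate block called 1733 higher and 6875 lower over all genes and 54 and 835 among genes with a 3' UTR peak. Under the replicate block the calls of SVP-like (Rsa10010012; adjusted p = 0.0622) and TIFY 7-like (Rsa10008104; adjusted p = 0.0564) were lost, and cinnamoyl-CoA reductase 1 (Rsa10015266) was called lower (adjusted p = 0.0424). Of 35 named transcripts called, 17 kept direction and call under all 14 alternatives tested; median centring ended a call of 13 (DAD1 besides), quantile normalization of 9, the replicate block of 7, no filter of 3 and no trend of 2. Read depth is not given, so precision at low FPKM is unknown.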

Other observations

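Some 3' UTR peaks had very small p-values on genes with almost no input signal. Of the 81 peaks in genes with a mean under 1 FPKM, 6 had a p under 1e-10 in the authors' deposited table, all higher at 120 days. The smallest, 2.51e-70, was on an ATP-dependent RNA helicase A-like gene (Rsa10039765), at 0.23, 0.10 and 0.30 FPKM at 120 days and 0.26, 0.16 and 0.46 FPKM at 30 days, with a peak log2 fold of 0.641 in the authors' deposited table. Next were a leukotriene A-4 hydrolase homolog (Rsa10003054; p = 3.16e-27) and an L-type lectin receptor kinase V.9-like gene (Rsa10026701; p = 2.51e-23) in the authors' deposited table, with no library above 0.17 FPKM in either. Among the 6 was also the NRT1/PTR FAMILY 7.3 gene (Rsa10029988), whose 30-day libraries stood higher. It was at 1.41, 1.68 and 2.22 FPKM at 30 days and 0.25, 0.02 and 0.04 FPKM at 120 days.

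Several families had a 3' UTR peak on 3 or more gene copies. EDR1 had 4 genes, between -0.576 and 0.701 in the authors' deposited table. Nucleolin had 3, between -0.246 and 0.633, while 40S ribosomal protein S24-1 had 3 within the narrow range of 0.35 to 0.421, by the authors' deposited table. Near-identical copies can share reads, so the values of such copies are uncertain.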
